A study of Mus musculus with 24 samples.

Results

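The BCL2 family comprises proteins that set whether the outer mitochondrial membrane is opened during apoptosis. The 10 genes described here, Bcl2l10, Mcl1, Bcl2, Bcl2l1, Bax, Bak1, Bid, Bik, Bbc3 and Pmaip1, were taken by symbol and matched to Ensembl identifiers through the GENCODE M21 annotation of GRCm38. All 10 matched exactly 1 identifier, out of 55487 genes in the files, and all are annotated as protein coding. The libraries came from wild-type (WT) mice and from mice with a knockout of Nlrp14, an oocyte NLR family gene, at 4 stages. Sampling covered immature oocytes with a germinal vesicle (GV), mature oocytes in metaphase II (MII), zygotes with late pronuclei (PN5) and 2-cell embryos, with 3 libraries for each genotype at each stage and 5 oocytes or embryos in each library. The sources used here do not give strain, age, the design of the knockout allele or the genotype of the sires. The series asks how loss of Nlrp14 bears on female infertility and early embryo arrest.

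Anti-apoptotic members (BCL2, BCL-XL encoded by Bcl2l1 and MCL1) bind and restrain the pore-forming members BAX and BAK, which release cytochrome c when they oligomerise in the membrane. BCL2L10 is grouped here with the anti-apoptotic members, and its activity was not measured. BH3-only members (BID, BIK, PUMA encoded by Bbc3 and NOXA encoded by Pmaip1) act upstream, either on the pore formers or by occupying the anti-apoptotic members. Oocytes carry a large store of maternal transcripts that is cleared after fertilisation, and in the mouse the major wave of embryonic transcription begins at the 2-cell stage.

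Values are FPKM, fragment numbers scaled by transcript length and by library size, so they are shares of a library and not copies per cell. A lower share and fewer copies cannot be told apart, nor can a change in the few embryos of a pool and a change in all of them. Differences are given on the scale log2(FPKM + 1), which understates changes of low values, and a gene was called at an adjusted p under 0.05 (limma with Benjamini-Hochberg adjustment over all genes tested). The depth implied by the deposited values was about 7640000 to 12250000 fragments per library. The targeted gene had a mean of 28.4 FPKM in knockout against 1937 FPKM in wild-type oocytes at GV, 19.6 against 390.7 at MII, 6.8 against 209.8 at PN5 and 26.4 against 106.1 at the 2-cell stage, and no knockout library reached a wild-type library of its stage. All 9 oocyte markers examined (Zp1, Zp2, Zp3, Gdf9, Bmp15, Ddx4, Figla, Nobox and Mos) reached 1 FPKM in at least 1 library of both genotypes at GV. Of 8 markers of the 2-cell stage 7 were matched, and all 7 reached 1 FPKM in at least 1 library of each 2-cell group. Their summed FPKM was 916.8 to 1293 in wild-type and 1528 to 2293 in knockout 2-cell embryos, and that of the oocyte markers 391.8 to 588.1 and 954.6 to 1092.

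The family was dominated by 1 transcript. Bcl2l10, grouped here with the anti-apoptotic genes, is best known from the ovary and oocyte. It accounted for 99.2 to 99.9% of the summed FPKM of the 10 genes in every library of GV, MII and PN5. In 2-cell embryos it accounted for 99.1 to 99.6% in the knockout and for 89.8 to 94.5% in wild type. Of the other 9 genes, Bcl2 and Bak1 were near the limit of detection throughout. Bcl2, the founding member, never exceeded 0.131 FPKM, and Bak1 never exceeded 0.0832 FPKM and was listed at 0 in 22 of 24 libraries. Bbc3 was listed at 0 in 20 of 24 and reached 1.65 FPKM in 1 wild-type 2-cell library. At 1 fragment per gene, FPKM would be 0.0089 to 0.0143 for Bcl2, 0.0339 to 0.0544 for Bak1 and 0.0384 to 0.0616 for Bbc3 by their full exon length. Those values are approximate because each gene has several annotated transcripts. Bcl2, Bak1 and Bbc3 did not pass the filter of at least 1 FPKM in at least 3 libraries, so they were tested in no comparison. Bcl2 (ENSMUSG00000057329) lies on chromosome 1 at 106538178 to 106714274 (- strand), Bak1 (ENSMUSG00000057789) on chromosome 17 at 27019810 to 27029009 (- strand) and Bbc3 (ENSMUSG00000002083) on chromosome 7 at 16308393 to 16318205 (+ strand). Bak1 shares exon sequence with Ggnbp1 on the opposite strand.

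**Figure D1:**
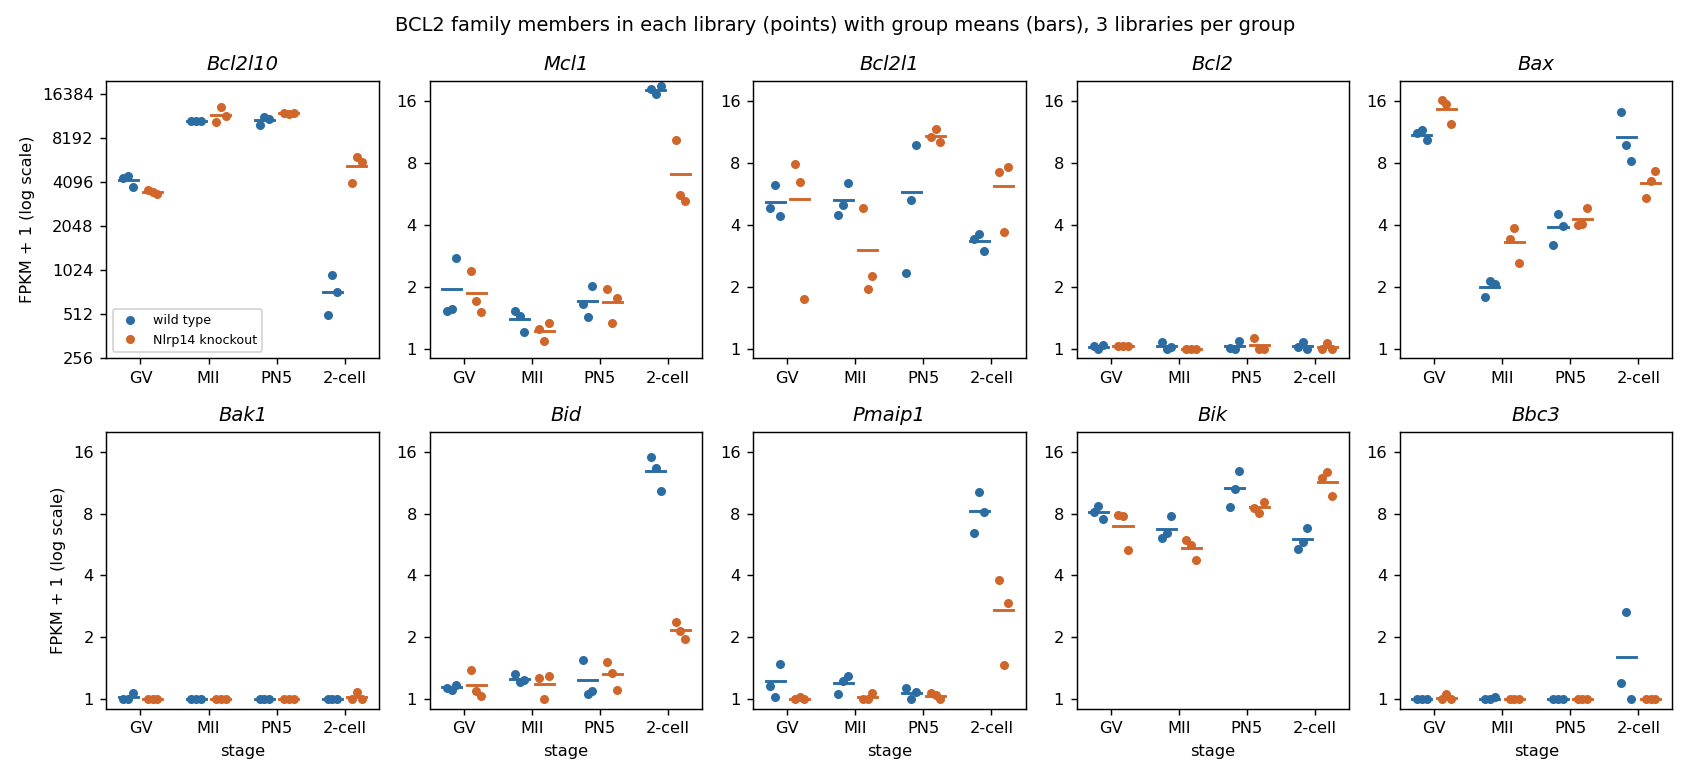
FPKM + 1 on a log scale for each of the 10 genes by stage, in wild-type (blue) and knockout (orange) libraries, with points for libraries and bars for group means of 3. Bcl2l10 has an axis of its own, with its lowest values in wild-type 2-cell embryos, and Mcl1, Bid and Pmaip1 are high in wild-type 2-cell embryos and lower in knockout ones.

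Bcl2l10 was the most abundant transcript of the MII oocyte by this measure. The gene (ENSMUSG00000032191, GRCm38 chromosome 9, 75347758 to 75351632, + strand) has 1 annotated transcript of 1220 nt, so each value can be read as a fragment number. It stood at 4330.5, 4456 and 3790.3 FPKM in wild-type GV oocytes, at 10625, 10680.3 and 10599 FPKM in MII oocytes and at 10037, 11386 and 10926 FPKM in PN5 zygotes. In 2-cell embryos it stood at 501.5, 951 and 722 FPKM. The wild-type level was thus high at MII and PN5, intermediate at GV and low at the 2-cell stage. It ranked first among all 55487 genes in each MII library of both genotypes and in each knockout PN5 library, and between first and sixth in wild-type PN5 zygotes. In wild-type MII oocytes it made up 3.44 to 3.46% of all FPKM, or between 127347 and 158369 fragments per library.

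In wild type the mean FPKM of Bcl2l10 rose 2.54-fold from GV to MII (log2 1.35, SE 0.07, adjusted p = 5.8e-07). Between MII and PN5 the means were 10635 ± 41.5 and 10783 ± 686 FPKM (SD, n = 3; log2 0.02, SE 0.17, adjusted p = 0.95), and the groups overlapped. It fell 14.9-fold from PN5 to the 2-cell stage (log2 -3.94, SE 0.29, adjusted p = 1.1e-05).

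In the knockout Bcl2l10 stood at 3603, 3496 and 3389 FPKM at GV, at 10489, 13343 and 11569 FPKM at MII and at 12110.5, 11989 and 12005 FPKM at PN5. The 3 GV libraries lay below the 3 of wild type and the 3 PN5 libraries above them, while the MII groups overlapped. No difference passed at these stages (log2 -0.26, 0.14 and 0.16, SE 0.14, 0.12 and 0.19, adjusted p = 0.53, 0.45 and 0.57 by limma). Knockout 2-cell embryos held 4033, 6095 and 5581 FPKM, all above the wild-type values of 501.5 to 951 FPKM. The mean of 5237 ± 1073 FPKM was 7.22 times that of wild type (log2 2.88, SE 0.26, adjusted p = 0.00025). Ordered by mean, the 4 highest groups were knockout PN5, knockout MII, wild-type PN5 and wild-type MII, and each overlapped the next in its range. Knockout 2-cell and wild-type GV followed and overlapped each other but not wild-type MII. Knockout GV and then wild-type 2-cell came last, each apart from the group above it.

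Mcl1 was the anti-apoptotic gene whose level rose as that of Bcl2l10 fell. MCL1 is a short-lived protein that binds BAK and BH3-only proteins. The gene (ENSMUSG00000038612, chromosome 3, 95658788 to 95663176, + strand) lay between 0.0887 and 1.75 FPKM in the 18 libraries of GV, MII and PN5. In wild-type 2-cell embryos it stood at 17.4, 16.3 and 17.9 FPKM, and in knockout 2-cell embryos at 9.34, 4.56 and 4.2 FPKM. All 2-cell libraries thus lay above all libraries of earlier stages, and the knockout libraries below the wild-type ones. The rise in wild type from PN5 was 24.6-fold (log2 3.43, SE 0.24, adjusted p = 8.7e-06). Mcl1 passed the filter of that test only with the 2-cell libraries, where it was high. At the 2-cell stage the knockout held 35.1% of the wild-type mean (log2 -1.44, SE 0.29, adjusted p = 0.0035).

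RefSeq's table for GRCm38.p6 held promoters for 7 of the 10 members. The upstream sequences of Mcl1, Bid and Bax are shown because all 3 genes rose in wild-type 2-cell embryos and were lower there in the knockout (values of Bid and Bax follow). Each runs 5′ to 3′ on the gene's strand from 250 bases before RefSeq's annotated start, leaving out bases that GENCODE M21 places in an exon, and capitals mark GC boxes (GGGCGG on either strand).
Mcl1: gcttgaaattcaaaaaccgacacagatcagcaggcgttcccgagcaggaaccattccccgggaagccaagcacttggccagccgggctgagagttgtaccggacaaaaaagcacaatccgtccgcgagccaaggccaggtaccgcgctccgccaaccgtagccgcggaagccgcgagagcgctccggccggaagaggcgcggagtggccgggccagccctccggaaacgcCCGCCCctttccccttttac
Bid: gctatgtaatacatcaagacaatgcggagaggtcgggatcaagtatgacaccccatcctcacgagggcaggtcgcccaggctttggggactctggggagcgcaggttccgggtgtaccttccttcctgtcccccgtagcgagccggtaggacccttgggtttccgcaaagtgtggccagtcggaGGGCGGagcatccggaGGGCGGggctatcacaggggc
Bax: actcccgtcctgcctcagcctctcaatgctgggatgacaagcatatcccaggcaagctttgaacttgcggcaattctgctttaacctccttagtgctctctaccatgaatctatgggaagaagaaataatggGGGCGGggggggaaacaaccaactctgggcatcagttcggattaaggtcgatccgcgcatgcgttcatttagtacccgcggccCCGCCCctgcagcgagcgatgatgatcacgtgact
They lie at chr3:95658471-95658720 (+), chr6:120916854-120917074 (-) and chr7:45466899-45467148 (-). The GC content was 64.4, 62.4 and 54.0%, and 18.4, 21.4 and 44.8% of all 32851 promoter entries had as much or more over the same length. GGGCGG occurred 1, 2 and 2 times, and 32.7% of all entries held it in 250 bases and 28.7% in 221 bases. Searched on both strands, TATAAA was in none of the 3 windows (12.4% of all entries held it in 250 bases), nor was CCAAT (33.9%) or the cyclic AMP response element TGACGTCA (1.55%). The E-box pattern CANNTG occurred 1, 0 and 1 times and was held by 66.2% of entries in 250 bases and 62.25% in 221 bases. GGATTA, a core recognised by paired-like homeodomain proteins such as the OTX family, occurred 1 time in the Bax window and was held by 6.25% of entries. These are matches of letters only. The Bax window lies within the locus of Gm45808, described with Bax.

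Bcl2l1, which encodes BCL-XL (ENSMUSG00000007659, chromosome 2, 152780668 to 152831728, - strand), varied widely between libraries of a group. In wild type it stood at 3.85, 5.22 and 3.40 FPKM at GV, at 3.46, 4.01 and 5.37 FPKM at MII, at 1.35, 4.26 and 8.81 FPKM at PN5 and at 2.42, 2.62 and 1.98 FPKM in 2-cell embryos. In the knockout it stood at 6.90, 5.47 and 0.737 FPKM at GV, at 3.83, 0.945 and 1.25 FPKM at MII, at 9.73, 10.7 and 9.11 FPKM at PN5 and at 6.26, 2.68 and 6.65 FPKM in 2-cell embryos. The genotypes overlapped at GV and MII, and the knockout lay above wild type in PN5 and 2-cell embryos. Limma called none of these 4 differences (log2 -0.19, -0.92, 1.13 and 0.82, SE 0.55, 0.33, 0.47 and 0.31, adjusted p = 0.92, 0.13, 0.14 and 0.053).

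The exon length of Bcl2l1 is 4586 nt over 9 annotated transcripts, and the libraries differed in how level depended on gene length. Regressing log2 level on log2 exon length gave a slope that, relative to the 6 libraries of a stage, was -0.13 in knockout GV replicate 3, -0.10 and -0.04 in knockout MII replicates 2 and 3, and -0.17 in wild-type PN5 replicate 1. Those 4 libraries held the lowest Bcl2l1 values of all 24, between 0.737 and 1.35 FPKM, as the plot of Bcl2l1 against that slope shows. In the same group, wild-type PN5 replicates 2 and 3 had slopes of -0.07 and 0.02 and held 4.26 and 8.81 FPKM. Whether the slope accounts for the spread of Bcl2l1 was not tested. The library with the lowest Bcl2l1 was also that with the lowest slope in 5 of 8 groups. In the knockout PN5 libraries the slope was 0.06 to 0.09 and Bcl2l1 was highest. With the length trend removed, the genotype difference in Bcl2l1 was log2 -0.15 at GV, -0.86 at MII and 1.00 at PN5, and none was called (adjusted p = 0.93, 0.13 and 0.17). The difference at MII passed without knockout replicate 1 (log2 -1.32, adjusted p = 0.0045) and that at PN5 without wild-type replicate 3 (log2 1.625, adjusted p = 0.017). Over all genes, those fits called 3083 of 8525 tested (199 in the fit reported) and 2967 of 9021 tested (578 in the fit reported). At the 2-cell stage the difference in Bcl2l1 passed when libraries were rescaled by the median of ratios (log2 1.23, adjusted p = 0.0098), with the length trend removed (log2 0.86, adjusted p = 0.040) and without knockout replicate 2 (log2 1.16, adjusted p = 0.0082).

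**Figure D2:**
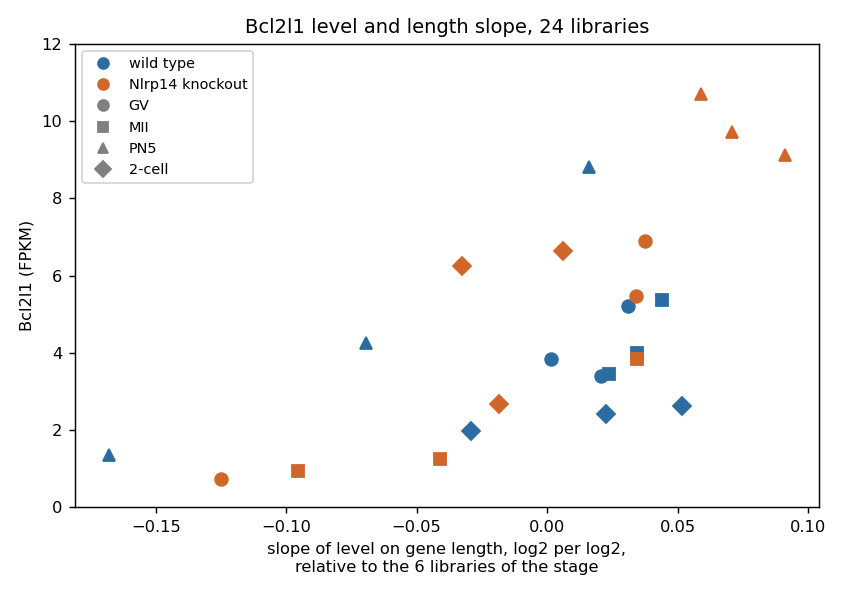
Bcl2l1 FPKM (vertical axis) against the length slope (log2 level regressed on log2 exon length) relative to the 6 libraries of the same stage (horizontal axis), with 1 point for each of 24 libraries, colour for genotype and shape for stage. The 4 libraries with Bcl2l1 of 1.35 FPKM or less have slopes of -0.04 to -0.17, and the 3 knockout PN5 libraries are at the upper right.

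Of the pore-forming members only Bax was measurable. Bax (ENSMUSG00000003873, chromosome 7, 45461697 to 45466898, - strand) stood at 10.1, 10.5 and 9.29 FPKM in wild-type GV oocytes, at 0.786, 1.13 and 1.07 FPKM at MII, at 2.18, 3.54 and 2.93 FPKM at PN5 and at 13.2, 8.82 and 7.19 FPKM in 2-cell embryos. The level was therefore lowest at MII, with no overlap between successive stages. It fell 10.03-fold from GV to MII (log2 -2.46, SE 0.11, adjusted p = 3.7e-07), while Bcl2l10 rose over the same interval. It then rose from MII to PN5 (log2 0.95, SE 0.20, adjusted p = 0.021) and from PN5 to the 2-cell stage (log2 1.44, SE 0.29, adjusted p = 0.0025). The call between MII and PN5 was lost as TPM (0.13), with no filter (0.074) and without any 1 of wild-type MII replicates 1, 2 and 3 or PN5 replicate 2 (0.085 to 0.11).

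Knockout Bax stood at 15.3, 14.4 and 11.4 FPKM at GV and at 2.43, 2.87 and 1.61 FPKM at MII, above all wild-type libraries at both stages. Neither difference was called (log2 0.41 and 0.71, SE 0.17 and 0.19, adjusted p = 0.41 and 0.076). Leaving out knockout GV replicate 3 (log2 0.53, adjusted p = 0.031) or knockout MII replicate 1 (log2 0.68, adjusted p = 0.033) brought each past the threshold. Over all genes, the calls in those fits rose as well, from 5 to 1026 of 11437 tested and from 199 to 3083 of 8525 tested. At PN5 the values of 2.99, 3.04 and 3.85 FPKM overlapped those of wild type. In knockout 2-cell embryos Bax stood at 4.37, 5.52 and 6.32 FPKM, below the 3 wild-type libraries (log2 -0.72, SE 0.27, adjusted p = 0.048). It did not pass with median-of-ratios rescaling (log2 -0.24, adjusted p = 0.45), as TPM, with no filter, with a pseudocount of 0.1 and with the replicate number as a block (adjusted p = 0.067, 0.11, 0.051 and 0.092). Nor did it pass without wild-type replicate 1 or 2 or any 1 knockout replicate (0.064 to 0.16). Bax shares 192 nt of exon with Gm45808 on the same strand, a gene that did not exceed 1.11 FPKM.

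Of the BH3-only genes, Bik was present from GV on, while Bid and Pmaip1 reached 1 FPKM in 2-cell embryos only. Bid, whose product is cleaved by caspase-8 and links death receptors to mitochondria, lay at or below 0.557 FPKM in every library of GV, MII and PN5. It stood at 14.04, 12.3 and 9.26 FPKM in wild-type 2-cell embryos and at 1.38, 1.15 and 0.958 FPKM in knockout ones. Every knockout 2-cell library was thus above all earlier libraries and far below wild type, with a mean 9.80% of the wild-type mean (log2 -2.56, SE 0.24, adjusted p = 0.00025). In wild type Bid rose from PN5 to the 2-cell stage by log2 3.38 (SE 0.27, adjusted p = 1.6e-05). Bid (ENSMUSG00000004446, chromosome 6, 120891930 to 120916853, - strand) shares 628 nt of exon with Bcl2l13 on the opposite strand, and the sources used here do not say whether fragments were assigned by strand. Bcl2l13 stood at 4.87 FPKM at MII, where Bid stood at 0.261 FPKM, and at 6.89 FPKM in wild-type and 2.30 FPKM in knockout 2-cell embryos (means of 3), where it too was called lower.

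Pmaip1 encodes NOXA, which binds MCL1 and promotes its degradation, and is a p53 target. The gene (ENSMUSG00000024521, chromosome 18, 66458533 to 66465565, + strand) stood at 5.46, 9.20 and 7.14 FPKM in wild-type 2-cell embryos and at 2.79, 0.462 and 1.93 FPKM in knockout ones. In the 18 earlier libraries it did not exceed 0.483 FPKM and was listed at 0 in 6. The rise in wild type from PN5 was log2 2.92 (SE 0.25, adjusted p = 2.0e-05), and the knockout 2-cell mean was 23.8% of wild type (log2 -1.68, SE 0.37, adjusted p = 0.0055). Bid and Pmaip1 entered the test of that rise through the wild-type 2-cell libraries alone, since neither reached 1 FPKM at PN5. Each reached 1 FPKM in 3 wild-type but only 2 knockout 2-cell libraries, so both also passed the filter of the genotype and interaction tests only with the wild-type 2-cell libraries, where they were high.

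Bik, which encodes a BH3-only protein of the endoplasmic reticulum, was detected in all 24 libraries and, unlike Bid and Pmaip1, was higher in knockout than in wild-type 2-cell embryos. The gene (ENSMUSG00000016758, chromosome 15, 83526862 to 83544634, + strand) stood at 7.16, 7.74 and 6.53 FPKM in wild-type GV oocytes, at 5.05, 5.46 and 6.75 FPKM at MII, at 7.61, 9.59 and 11.9 FPKM at PN5 and at 4.37, 4.85 and 5.84 FPKM in 2-cell embryos. In wild type it fell from PN5 to the 2-cell stage (log2 -0.82, SE 0.26, adjusted p = 0.023), a call lost with the replicate number as a block (0.052) and without any 1 of 5 of the 6 libraries (0.051 to 0.11), the exception being wild-type PN5 replicate 1. Knockout 2-cell embryos held 10.9, 11.7 and 8.76 FPKM, above all wild-type 2-cell libraries (2.08-fold, log2 0.92, SE 0.22, adjusted p = 0.0078). At GV, MII and PN5 the knockout means were 83.8, 77.3 and 78.3% of wild type, with none of these differences called (adjusted p = 0.71, 0.27 and 0.40). Bbc3, which encodes the p53 target PUMA, stood at 0.2, 1.65 and 0 FPKM in wild-type 2-cell embryos and was listed at 0 in the 3 knockout ones.

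**Figure D3:**
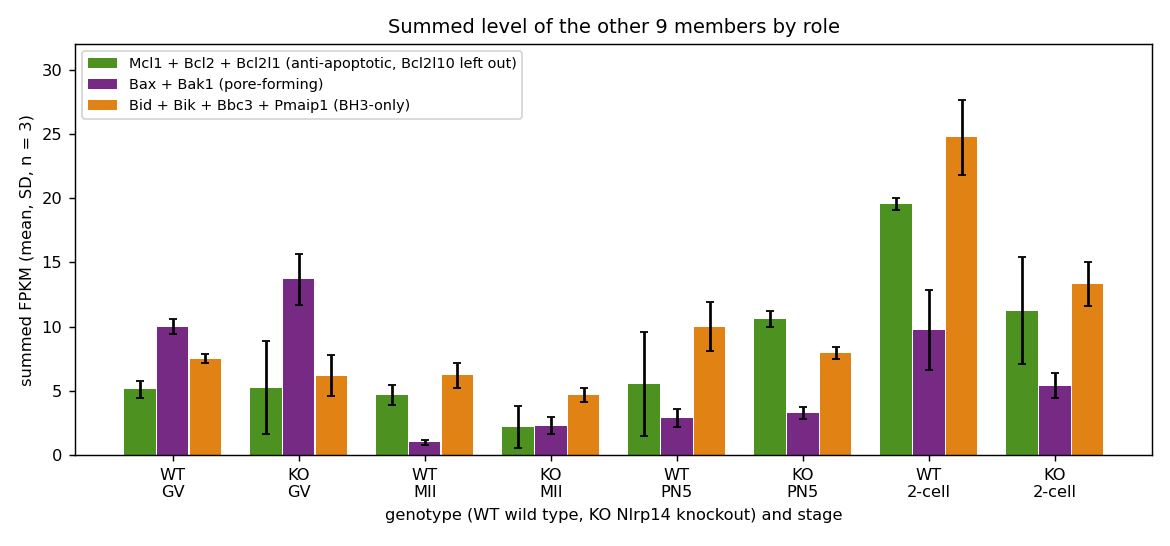
Summed FPKM (mean, SD, n = 3, vertical axis) in each of the 8 groups for the 3 anti-apoptotic genes other than Bcl2l10 (green), the 2 pore-forming genes (purple) and the 4 BH3-only genes (orange). The BH3-only sum is 24.8 in wild-type and 13.3 in knockout 2-cell embryos, and the pore-forming sum is lowest in wild-type MII oocytes at 0.996.

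Summed by role, BH3-only genes stood at 24.8 ± 2.92 FPKM in wild-type and 13.3 ± 1.69 FPKM in knockout 2-cell embryos. Within the knockout sum most came from Bik, whereas Bid led in wild type. The anti-apoptotic genes other than Bcl2l10 summed to 19.6 ± 0.458 and 11.3 ± 4.16 FPKM in the same groups, and the pore-forming genes to 9.74 ± 3.11 and 5.43 ± 0.983 FPKM. These sums are given as levels, without a test.

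The comparison of genotypes at each stage thus gave calls among these genes at the 2-cell stage alone. At GV, MII and PN5, 4 members were tested (Bcl2l10, Bcl2l1, Bax and Bik) and limma called 0, beside 0.043, 2.28 and 6.1% of all genes tested. At an unadjusted p under 0.05 there were 1, 2 and 1, beside 11.8, 29.1 and 31.3% of all genes tested. Groups did not overlap for 2 of the 4 at each of these stages, beside 23, 34.5 and 40.1% of all genes tested. At the 2-cell stage 7 members were tested and 6 called by limma, beside 54.3% of all genes tested, and all 7 had an unadjusted p under 0.05, beside 59.9%. Of these, 2 were higher (Bcl2l10 and Bik, beside 14% of all genes) and 4 lower (Bid, Pmaip1, Mcl1 and Bax, beside 40.3%), and groups did not overlap for all 7, beside 62%. Bid and Pmaip1, counted among the lower genes, passed the filter of that test only with the wild-type libraries, where they were high. With 54.3% of all genes called at this stage, the count alone does not set the family apart.

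**Figure D4:**
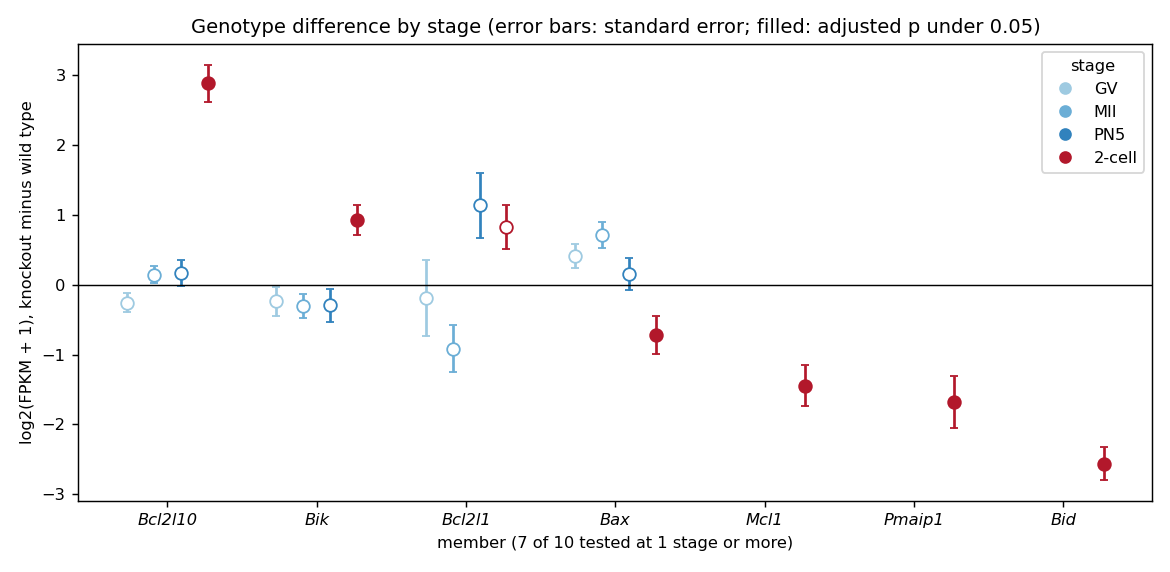
Difference in log2(FPKM + 1), knockout minus wild type (vertical axis), with standard errors, for the 7 members tested at 1 stage or more, coloured by stage and filled where the adjusted p was under 0.05. The filled points are all at the 2-cell stage and run from 2.88 for Bcl2l10 to -2.56 for Bid. Bid and Pmaip1 passed the filter of that test only with the wild-type libraries, where they were high.

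At the 2-cell stage all tested genes had a median difference of -0.44 in the deposited values, of -0.02 with median-of-ratios rescaling and of -0.52 as TPM. With rescaling the called genes split into 3401 higher and 3668 lower, against 1936 and 5577 as deposited. The 7 members kept their signs under each scaling. With that rescaling the differences were 3.43 for Bcl2l10, 1.395 for Bik, -0.95 for Mcl1, -1.28 for Pmaip1 and -2.14 for Bid, each with an adjusted p under 0.05, while Bax did not pass.

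In wild type, 2 of 4 members were called from GV to MII, beside 84% of all genes tested, with Bcl2l10 higher (31.1% of all genes) and Bax lower (52.8%). From MII to PN5 1 of 4 was called, beside 14.2%, and that gene, Bax, was higher (9.8%). From PN5 to the 2-cell stage 6 of 7 were called, beside 62.8%, with 4 higher (Mcl1, Bid, Pmaip1 and Bax, beside 48% of all genes) and 2 lower (Bcl2l10 and Bik, beside 14.8%). Bid and Pmaip1 passed the filter only through the group where they were high. Mcl1, at 0.645, 0.432 and 1.02 FPKM at PN5, likewise passed only with the 2-cell libraries, where it was high. Over that step all tested genes had a median change of 0.70 in the deposited values and of 0.22 with rescaling, under which the called genes split into 5101 higher and 3236 lower, against 6429 and 1989. Whether the genotypes differed in a step was tested by the interaction of genotype and stage. Limma called 0 of 4 members for GV to MII, beside 0.12% of all genes tested, and 0 of 4 for MII to PN5, beside 7.45%, with 1 member at an unadjusted p under 0.05 in each (beside 6.64 and 38.6% of all genes). For PN5 to the 2-cell stage 5 of 7 were called, beside 45.8%, with 2 higher (13.8% of all genes) and 3 lower (31.9%). The interaction was 2.72 for Bcl2l10 (SE 0.32, adjusted p = 0.00012), -2.66 for Bid (SE 0.31, adjusted p = 0.00012), -1.64 for Pmaip1 (SE 0.42, adjusted p = 0.0076), -1.43 for Mcl1 (SE 0.38, adjusted p = 0.0095) and 1.22 for Bik (SE 0.29, adjusted p = 0.0050). For Bax it was -0.87 (SE 0.34, adjusted p = 0.053) and for Bcl2l1 -0.31 (SE 0.60, adjusted p = 0.70). With a pseudocount of 0.1 the interactions of Mcl1 and Pmaip1 did not pass (adjusted p = 0.060 and 0.076), and as TPM that of Bik did not (0.059).

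The knockout 2-cell libraries were also placed on the wild-type path from PN5 to the 2-cell stage, with the wild-type PN5 mean as 0% and the wild-type 2-cell mean as 100% on the log2(FPKM + 1) scale. Bcl2l10 lay at 20.8 to 35.96% and Bid at 20.2 to 28.5%. Pmaip1 lay at 15.3 to 62.3%, Bax at 33.4 to 64.3% and Mcl1 at 47.4 to 76.3%. Bik lay at -32.4 to 13.7%, that is around the PN5 level, with 2 of 3 libraries above it. These positions describe 3 libraries each, and no difference between genes was tested.

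Further genes with roles around the family were counted in the same fits, in 3 lists chosen with earlier results known. Among 18 other BCL2-related genes, 10 were tested at the 2-cell stage, with 0 higher and 7 lower in the knockout (beside 14% and 40.3% of all genes), and their median difference was -1.02 beside -0.44 for all genes. Bcl2l14 fell from 7.33, 10.1 and 4.17 FPKM to 1.08, 0.756 and 0.478 FPKM (log2 -2.16, SE 0.32, adjusted p = 0.00094). Bcl2l11, which encodes the BH3-only protein BIM, fell from 9.60, 7.98 and 5.93 FPKM to 2.73, 3.38 and 3.36 FPKM (log2 -1.07, adjusted p = 0.0058). Bnip3, which encodes a mitochondrial mitophagy receptor, fell from 111, 92.8 and 101 FPKM to 61.1, 48.8 and 45.3 FPKM (log2 -0.97, adjusted p = 0.0033), a call lost with median-of-ratios rescaling (log2 -0.43, adjusted p = 0.10). The BAX-binding gene Moap1 fell from a mean of 14.15 to 1.20 FPKM (log2 -3.02, adjusted p = 0.0028), with 3.42, 0 and 0.170 FPKM in the knockout. Bcl2l14 and Moap1 passed the filter of this test only with the wild-type libraries, where they were high. Bnip3 was also the 1 gene of 7 called at PN5 (beside 0.569% of all genes higher and 5.53% lower), where it fell from 45.7, 52.4 and 37.4 FPKM to 18.8, 23.97 and 13.7 FPKM (log2 -1.24, adjusted p = 0.041). At GV 0 of 8 were called, beside 0.043% of all genes tested. At MII 1 of 6 was called (beside 0.32% of all genes higher and 1.96% lower). This was Bcl2l15, which rose from 0.55, 0.411 and 0.483 FPKM to 2.41, 4.33 and 1.97 FPKM (log2 1.35, adjusted p = 0.030). The call of Bcl2l15 was lost with no filter and without any 1 of the 3 wild-type libraries (adjusted p = 0.13 to 0.17), and without any 1 knockout library the gene did not pass the filter.

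Of 19 genes acting downstream of the mitochondrial pore, 15 were tested at the 2-cell stage, with 2 higher and 7 lower, beside 14% and 40.3% of all genes (median -0.64 beside -0.44 for all genes). The 2 higher ones, named after their values were seen, were the apoptosis inhibitor Birc3 and the channel gene Vdac3. Diablo, which encodes the inhibitor-of-apoptosis antagonist SMAC, fell from a mean of 20.2 to 5.58 FPKM (log2 -1.70, adjusted p = 0.0015). The apoptosis inhibitor Birc2 fell from 5.47 to 1.19 FPKM and the flavoprotein gene Aifm1 from 11.75 to 3.61 FPKM (means of 3, log2 -1.56 and -1.48, adjusted p = 0.00095 and 0.0014). Birc2 stood at 0.965, 1.25 and 1.35 FPKM in the knockout and passed the filter only with the wild-type libraries, where it was high. At PN5 2 of 12 were lower, beside 5.53% of all genes, namely Vdac2, an outer-membrane channel that binds BAK (18.1 to 6.07 FPKM, log2 -1.41, adjusted p = 0.037), and Birc5, which encodes survivin (123.5 to 61.6 FPKM, log2 -1.02, adjusted p = 0.045). The PN5 calls of Bnip3, Vdac2 and Birc5 were each lost in 9 of 12 other fits, which for the listed genes were added after the data were seen. These were median-of-ratios rescaling, TPM, no filter, the pseudocount of 0.1, the replicate number as a block, and leaving out wild-type replicate 2 or any 1 knockout replicate (highest adjusted p = 0.18, 0.18 and 0.19). Over all genes the PN5 calls fell from 578 to 1 with that block and to 1 or 2 without wild-type replicate 2 or any 1 knockout replicate. None of the downstream genes was called at GV (10 tested) or MII (12 tested), beside 0.043 and 2.28% of all genes tested.

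Of 12 regulators of MCL1 or of BH3-only genes, 11 were tested at the 2-cell stage, with 1 higher and 4 lower, beside 14% and 40.3% of all genes (median -0.33 beside -0.44 for all genes). Ddit3, which encodes the stress-induced factor CHOP, rose from 18.6, 23.1 and 23.98 FPKM to 46.8, 55.5 and 60.4 FPKM (log2 1.27, SE 0.20, adjusted p = 0.0013). A second gene model carries the same symbol, and the longer one (ENSMUSG00000025408) was used. Trp53, which encodes p53, fell from 8.78, 6.90 and 6.93 FPKM to 1.36, 0.758 and 3.36 FPKM (log2 -1.70, SE 0.34, adjusted p = 0.0036). Trp53 passed the filter of this test only with the wild-type libraries, where it was high. The checkpoint kinase gene Chek2 fell from a mean of 16.55 to 3.07 FPKM and the p53 ligase gene Mdm2 from 15.3 to 8.29 FPKM (log2 -2.13 and -0.83, adjusted p = 0.00036 and 0.014). The call of Mdm2 was lost with median-of-ratios rescaling (log2 -0.32, adjusted p = 0.28) and without knockout replicate 1. The fourth lower gene was Usp9x, which encodes a deubiquitinase of MCL1. None of these genes was called at GV, MII or PN5 (10, 11 and 11 tested), beside 0.043, 2.28 and 6.1% of all genes tested.

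Markers of other cell types were read in the same libraries. The 12 granulosa and cumulus markers had summed levels of 18.2 to 33.8 FPKM in 2-cell embryos of wild type, against 5.64 to 10.1 FPKM in those of the knockout. Most of the wild-type sum came from Tnfaip6 (15.6 to 32.6 FPKM), and Amh, Fshr, Inha, Inhba and Ptx3 were listed at 0 in all 6 libraries. The 6 blood and oviduct markers summed to 97.6 to 180.5 and 24.6 to 36.9 FPKM, led by Epcam and Hba-a1, with Hbb-bs at 0 in all 6. The 6 sperm markers summed to 2.31 to 2.81 and 3.00 to 4.49 FPKM. The part of these markers' cell types in the 2-cell differences was not tested.

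The genes whose level followed a member most closely were found by Pearson's r of log2(FPKM + 1) over the 24 libraries, among 6424 genes with a group mean of at least 5 FPKM, as a description. For Bcl2l10 they were Med30 (r = 0.98), Dguok and Dclre1a (both 0.96), and Med30 averaged 501 FPKM in wild-type MII oocytes and 84.7 and 307 FPKM in wild-type and knockout 2-cell embryos. For Mcl1 they were Prr11, Obox6 and Rilpl2 (0.98 each), with Obox6 at 532 and 57.0 FPKM in the 2-cell groups. For Bid they were Hsd17b14, Nid2 and Arg1 (0.99 each), and for Pmaip1 Tchh, Bex6 and Ctrb1 (0.98 each). For Bax they were Mrps7, Dppa2 and Cox4i1 (0.96 each), and for Bcl2l1 Jpt2 (0.94), Gnpat (0.91) and Rnf187 (0.90). Bik had the least close ones, Oog1 (0.81), Eif4e1b (0.79) and Tmem182 (0.76). The libraries share stages and genotypes, so a high r says mainly that 2 genes have the same group means.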

How the data were processed

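Per the labels' protocols, total RNA of 5 oocytes or embryos was lysed and reverse transcribed with the SMART-Seq HT kit. The authors deposited FPKM values per gene, 1 file per library, for 24 libraries in 8 groups of 3, and per the submitters' processing notes StringTie and GRCm38 were used. The aligner, versions, annotation release and filters are not given in the sources used here. Of 55487 identifiers 55227 matched GENCODE M21.

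Each comparison was fitted with limma 3.58.1 (R 4.3.3) on log2(FPKM + 1) with group means and an empirical Bayes variance (trend, robust), keeping genes that reached 1 FPKM in 3 or more of its libraries. Depth was read from whole multiples in the FPKM of 34257 genes with 1 transcript (tolerance 0.02, multiples up to 30, 98.9 to 99.4% whole). Tables and figures were made in Python 3.11.15 (matplotlib 3.10.9, numpy 2.4.6, pandas 2.3.3). The fit was tested on simulated data.

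The members and lists were chosen with earlier results of these data known. Named genes were all members, up to 4 called genes by smallest p of each list and stage, and the 3 genes most like each member with a group mean of at least 5 FPKM, leaving out predicted genes, Rik genes, clone names and pseudogenes. One gene that this rule names is not reported here. The labels call the samples biological replicates, each a pool, and p-values measure the spread between pools. Other settings tried were median-of-ratios rescaling, TPM, removal of the length trend, no filter, a pseudocount of 0.1, the replicate number as a block, and leaving out each library.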

Additional observations from a re-analysis of the deposited data

Results flagged for a closer look

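The step from PN5 to the 2-cell stage differed between genotypes for 5 of 7 members tested, beside 45.8% of all genes tested. The test was of the difference itself (interaction in limma, log2 change in the knockout minus that in wild type). The value was 2.72 for Bcl2l10, whose mean fell from 12035 to 5237 FPKM in the knockout and from 10783 to 724.9 FPKM in wild type. It was -2.66 for Bid (0.322 to 1.16 FPKM in the knockout, 0.24 to 11.9 FPKM in wild type), -1.64 for Pmaip1 (0.0408 to 1.73 against 0.0745 to 7.27 FPKM) and -1.43 for Mcl1 (0.685 to 6.03 against 0.699 to 17.2 FPKM). It was 1.22 for Bik, whose mean went from 7.59 to 10.4 FPKM in the knockout and from 9.68 to 5.02 FPKM in wild type. Bid and Pmaip1 reached 1 FPKM in 3 wild-type and 2 knockout 2-cell libraries and in no earlier one, so they passed the filter only with the wild-type 2-cell libraries where they were high. The knockout steps were not tested on their own.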

How the results depend on the processing

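Of 49 tested member differences 20 were called. None of the 20 changed sign under a setting in which it was tested, 6 of them no longer passed under at least 1, and 10 of the uncalled ones passed under at least 1. Among the uncalled differences, 10 changed sign under at least 1 setting. Leaving out 1 library at a time gave 0 to 1 members called between genotypes at GV, 0 to 2 at MII and 0 to 1 at PN5. It gave 0 to 2 for wild-type MII to PN5, 3 to 7 for wild-type PN5 to the 2-cell stage (3 without any 1 wild-type 2-cell library, when Bid and Pmaip1 did not pass the filter and had no value) and 0 to 1 for the interaction over MII to PN5. For wild-type MII to PN5 no member was called as TPM or with no filter (0 each), beside 769 of 13090 and 597 of 25566 genes tested. With a pseudocount of 0.1 the interaction over PN5 to the 2-cell stage held 3 called members of 7 tested, beside 5616 of 14986 genes tested. Counts over all genes moved more. Over the 6 other settings they ran from 2 to 28 at GV (5 in the fit reported), from 8 to 271 at MII (199) and from 1 to 412 at PN5 (578), and from 6778 to 8108 at the 2-cell stage (7513). Leaving out 1 library gave 1 to 1026, 3 to 3083, 1 to 2967 and 4855 to 6606. For the wild-type steps and interactions the widest ranges were 360 to 2632 for MII to PN5 (1335) and 0 to 4130 for its interaction (759), then 3656 to 8459 for PN5 to the 2-cell stage (8418) and 1 to 121 for the interaction over GV to MII (15). Rescaling by the median of ratios turned the split of higher and lower calls from 28 and 171 to 23 and 40 at MII, from 54 and 524 to 5 and 11 at PN5, from 919 and 416 to 815 and 649 for wild-type MII to PN5, and from 6 and 9 to 9 and 5 for the interaction over GV to MII.

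Outside wild-type MII to PN5, the replicate numbers showed no consistent pairing of libraries. Deviations of same-numbered libraries correlated between -0.21 and 0.21 across genotypes, and between -0.39 and 0.23 across wild-type steps. Every library correlated best with its own number only from MII to PN5 (r = 0.23, 0.05 and 0.23). Whether the libraries of that step were paired cannot be told from these values. With the replicate block 5 of 7 members tested were called between genotypes at the 2-cell stage, beside 7011 of 13828 genes tested. For wild-type PN5 to the 2-cell stage that block gave 5 of 7 members, beside 7847 of 13398 genes tested. The levels of Bcl2 and Bak1 rest on few or no fragments in every library.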

Other observations

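In wild type, genes around the family also moved between stages. From PN5 to the 2-cell stage 7 of 10 tested BCL2-related genes outside the 10 members rose and 0 fell, beside 48% of all genes tested that rose and 14.8% that fell. Of 15 genes downstream of the mitochondrial pore 9 rose and 2 fell (Birc3 and Vdac3), and of 11 regulators 3 rose (Chek2, Ddit3 and Huwe1) and 1 fell (Trp63). From GV to MII 7 of the 11 regulators rose, Trp53 and Mdm2 among them, and 2 fell (Btrc and Ddit3), beside 31.1% and 52.8% of all genes tested. Of 7 other BCL2-related genes 3 rose over that step (Bcl2l13, Bnip3 and Becn1) and 3 fell (Bcl2l12, Bnip3l and Bcl2l15). Of 11 downstream genes 4 rose (Htra2, Birc3, Birc2 and Vdac1) and 6 fell, Birc5 and Vdac2 among them. The genes in brackets and those given as among a count were picked after their values were seen.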
